A study of Mus musculus with 13 samples.

Results

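Complex III, complex IV and ATP synthase are the last 3 machines of mitochondrial respiration, and 44 genes for their subunits and for cytochrome c were followed in the mouse retina, out of 19937 genes measured. They were taken by name, as all genes whose symbol starts with Uqcr, Cox4, Cox5, Cox6, Cox7, Cox8 or Atp5, plus Cyc1 and Cycs. Of them 9 belong to complex III, 1 (Cycs) is cytochrome c, 17 carry names of complex IV and 17 of ATP synthase. Cox7c is not analysed here, because its 3 probe sets carry a second symbol, and neither are the subunits encoded by mitochondrial DNA. No member was removed for low signal, and 37 of the 44 lay above the median level of all genes.

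The study asked how the loss of the coactivator PGC-1α and bright light change genes of the retina, those of energy metabolism among them. Mice with a whole-body knockout of PGC-1α (KO) on C57 BL/6 were set against wild-type mice (WT). The methods name the WT mice as purchased C57 BL/6 NRj, whereas the figure legends of the arrays name them C57BL/6j. The methods do not describe KO and WT mice as littermates and give no substrain for the KO mice. Genotype, substrain and colony of origin therefore cannot be told apart. Both genotypes were aged between 6 and 13 weeks and were dark-adapted for 16 h. Light mice then had their pupils dilated and received white light of 15000 lux for 2 h, with darkness afterwards, and dark mice received none. The time between light and the RNA of the arrays is not clear from the methods. The groups were KO dark, WT dark, KO light and WT light with 3 arrays each, 1 Affymetrix Mouse Gene 1.0 ST array per mouse from the RNA of its 2 pooled retinae. A further array was labelled WT dark replicate 4. The labels give female for all dark mice but WT dark replicate 4 and male for all light mice, and hence sex and light cannot be told apart.

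As background, complex III passes electrons from ubiquinol to cytochrome c, a small soluble carrier in the intermembrane space. Complex IV hands them to oxygen, and both complexes pump protons out of the matrix. ATP synthase lets the protons flow back through its membrane ring, which turns the central stalk and drives the synthesis of ATP in its catalytic head. PGC-1α acts through transcription factors such as the estrogen-related receptors (ERR), NRF-1 and GABP, known regulators of these nuclear genes. Photoreceptor inner segments are packed with mitochondria, and rods use much ATP in darkness to pump out the ions that enter through their open channels.

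All values are log2 intensities, and a difference is KO minus WT or light minus dark on that scale, with the standard error (SE) of limma's 4-group model. A gene was called when its p adjusted by Benjamini-Hochberg over all genes was under 0.05 and its ratio at least 1.2 or at most 0.87. With 3 arrays against 3 an exact permutation test of a single gene cannot give a p under 0.1. Ppargc1a itself, the gene of PGC-1α, had levels of 10.40, 10.19 and 10.26 in KO dark, against 10.03, 10.01 and 10.02 in WT dark, while light arrays had 10.02, 10.25 and 9.96 (KO), against 9.96, 9.85 and 9.99 (WT). Its probe set was not lower in KO arrays, and the sources used here do not place it relative to the deleted part. It therefore does not check the labels, and KO and WT stand for arrays labelled so. The array labelled WT dark 4 correlated at 0.998 and 0.997 with KO light 1 and 2 over all genes, and at 0.989 with each of WT dark 1 to 3. KO light 3 correlated at 0.997 with each of WT dark 1 to 3, and at 0.991 and 0.993 with KO light 1 and 2. Results are therefore also given with the exchanged arrays, a set that takes the array labelled WT dark 4 into KO light and leaves KO light 3 out. This set was chosen by likeness in the same values that are then tested, a choice that can narrow the spread within KO light. Its adjusted p-values and calls, also with an array left out, may therefore be too favourable and are given as a description. Rod markers, 5 of 6 measured, averaged 12.04 to 12.08 in KO dark and 12.06 to 12.13 in WT dark, and the 6 markers of striated muscle 6.60 to 6.91 over all 13 arrays. RNA of a whole retina cannot tell fewer cells of a type from less RNA per cell.

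Promoter sequences were examined because the members shared a direction in several comparisons, and RefSeq (GRCm38.p6) gave a window of 250 bases before and 50 after the start site for 33 of the 44 members. Windows are shown for Cycs and Cox5b and for the members called in the dark with the exchanged arrays. The study measured Cycs and Cox5b by PCR as PGC-1α targets in a retinal pigment epithelial cell line with added PGC-1α. Capitals mark matches, on either strand, to the ERR site AAGGTCA, the NRF-1 core CGCATGCG, the GABP (ETS) site CCGGAAG and the YY1 site AAGATGG, none of which overlapped another here.
Uqcrh, chr4:116075021-116075320, minus strand: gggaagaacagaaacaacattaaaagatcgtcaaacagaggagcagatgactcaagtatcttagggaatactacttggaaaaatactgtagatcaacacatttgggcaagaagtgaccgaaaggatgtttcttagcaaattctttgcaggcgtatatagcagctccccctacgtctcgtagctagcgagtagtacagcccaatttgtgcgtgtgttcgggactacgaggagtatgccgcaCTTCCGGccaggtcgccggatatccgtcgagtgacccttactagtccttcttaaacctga
Cycs, chr6:50566520-50566819, minus strand: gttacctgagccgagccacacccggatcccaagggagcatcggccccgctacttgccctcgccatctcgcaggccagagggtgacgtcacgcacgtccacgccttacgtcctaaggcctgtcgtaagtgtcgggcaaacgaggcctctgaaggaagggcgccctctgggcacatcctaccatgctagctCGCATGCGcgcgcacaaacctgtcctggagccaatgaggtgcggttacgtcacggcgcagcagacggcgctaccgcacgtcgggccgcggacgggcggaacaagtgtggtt
Cox5b, chr1:36691237-36691536, plus strand: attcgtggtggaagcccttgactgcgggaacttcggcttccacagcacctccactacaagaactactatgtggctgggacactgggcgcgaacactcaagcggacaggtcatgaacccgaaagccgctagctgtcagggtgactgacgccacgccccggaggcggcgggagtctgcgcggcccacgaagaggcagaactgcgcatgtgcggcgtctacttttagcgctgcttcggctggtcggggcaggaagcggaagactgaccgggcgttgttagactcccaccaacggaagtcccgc
Atp5g1, chr11:96075582-96075881, minus strand: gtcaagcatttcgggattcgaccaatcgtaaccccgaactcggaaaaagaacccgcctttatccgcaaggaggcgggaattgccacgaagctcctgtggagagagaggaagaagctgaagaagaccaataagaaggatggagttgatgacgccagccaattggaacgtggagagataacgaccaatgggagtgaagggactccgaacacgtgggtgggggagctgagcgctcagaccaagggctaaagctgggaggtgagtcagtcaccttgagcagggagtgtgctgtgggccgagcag
Atp5k, chr5:108434350-108434649, minus strand: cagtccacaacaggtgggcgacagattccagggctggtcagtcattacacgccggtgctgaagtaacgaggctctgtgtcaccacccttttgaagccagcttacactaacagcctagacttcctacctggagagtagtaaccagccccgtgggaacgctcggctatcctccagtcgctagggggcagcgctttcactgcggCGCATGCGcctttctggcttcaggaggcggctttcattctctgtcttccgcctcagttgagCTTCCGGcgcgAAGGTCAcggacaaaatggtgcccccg
The Atp5k window held 3 of the motifs, with the NRF-1 core starting at base -49 from the start site, the GABP site at 13 and the ERR site at 24. In Cycs the NRF-1 core began at base -61, and in Uqcrh the GABP site at -10. The windows of Cox5b and Atp5g1 held none of these letters. Over the 33 members the NRF-1 core was found in 8 (24.2%, against 2.77% of 17491 coding genes), the GABP site in 11 (33.3%, against 12.9%), the ERR site in 4 (12.1%, against 4.73%) and the YY1 site in 3 (9.09%, against 7.18%). These matches describe letters, not binding.

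The mean level of the 44 genes was lowest in KO dark and highest in WT light. It was 9.23, 9.26 and 9.26 in KO dark, against 9.36, 9.34 and 9.32 in WT dark. After light it was 9.34, 9.40 and 9.33 in KO mice, against 9.45, 9.43 and 9.44 in WT mice. KO arrays lay below WT arrays in the dark and again after light, with no overlap, whereas KO light and WT dark overlapped. The array labelled WT dark 4 had 9.37, within the range of KO light and just above that of WT dark, and with it in place of KO light 3 the KO light mean was 9.37 ± 0.03 instead of 9.36 ± 0.04 (SD, n = 3). The mean of all genes differed little between arrays, from 7.41 to 7.45.

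**Figure D1:**
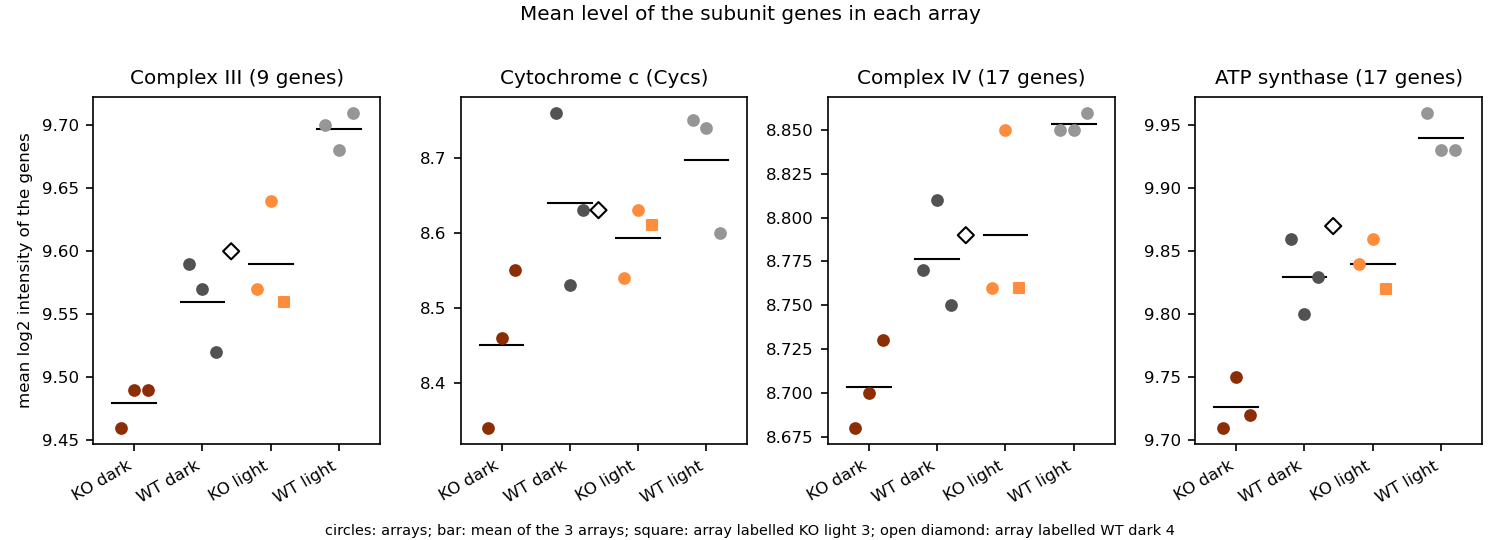
Level of complex III, Cycs, complex IV and ATP synthase in each array, as the mean log2 intensity over their genes (vertical axis), by group, with a bar at the mean of 3 arrays. ATP synthase genes averaged 9.71 to 9.75 in KO dark, 9.80 to 9.86 in WT dark, and after light 9.82 to 9.86 in KO mice, against 9.93 to 9.96 in WT mice, and Cycs overlaps between groups.

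The order was the same within the complexes. Complex III averaged 9.48 ± 0.02 in KO dark, against 9.56 ± 0.03 in WT dark, and 9.59 ± 0.05 in KO light, against 9.70 ± 0.02 in WT light (SD, n = 3 each). Complex IV averaged 8.70 ± 0.02 in KO dark, against 8.78 ± 0.03 in WT dark, and 8.79 ± 0.05 in KO light, against 8.86 ± 0.01 in WT light. ATP synthase averaged 9.73 ± 0.02 in KO dark, against 9.83 ± 0.03 in WT dark, and 9.84 ± 0.02 in KO light, against 9.94 ± 0.02 in WT light. Within complex IV the highest KO light array reached 8.85, the lower end of WT light, so that only complex III and ATP synthase kept KO light wholly below WT light.

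**Figure D2:**
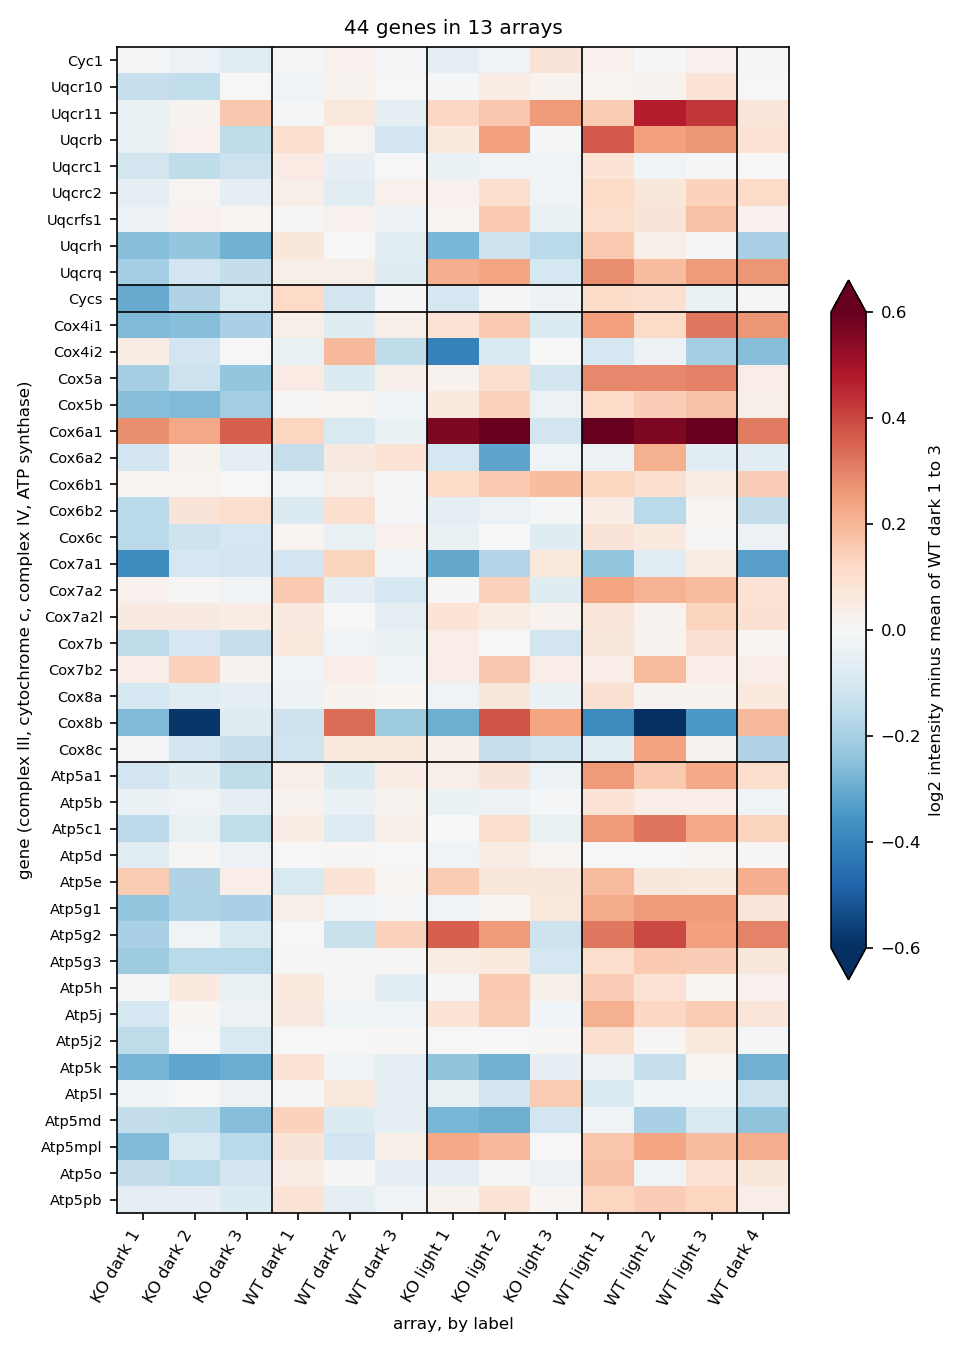
Log2 intensity of each of the 44 genes (rows, by complex) in each of the 13 arrays (columns, by label), relative to the mean of WT dark 1 to 3 of that gene, with colours held at the ends of the scale beyond 0.6. Most rows are blue in KO dark and red in WT light, while some, Uqcrh, Atp5k and Atp5md among them, are blue in KO light 1 and 2 too.

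In the dark, 34 of the 44 genes had a lower mean in KO than in WT mice, with a median difference of -0.08, where 48.4% of all genes were lower and their median was 0.00. Lower means were found for 7 of 9 genes of complex III (median -0.06), 11 of 17 of complex IV (-0.08) and 15 of 17 of ATP synthase (-0.10), and for Cycs. No member was called, in a comparison that called 0.0752% of all genes. At an unadjusted p under 0.05 with the ratio threshold, 5 members were lower and 0 higher, where 1.48% of all genes were lower. With the exchanged arrays, which leave these 6 arrays and their differences as they are and alter only the spread that the 4 groups share, 4 members were called lower and 0 higher, where 0.552% of all genes were called lower. These 4 were Uqcrh, Cox5b, Atp5g1 and Atp5k. Of the cell type markers, the 6 of amacrine cells, inhibitory interneurons, were all higher in KO dark (median 0.11, 1 called, and 2 called with the exchanged arrays). Their mean was 9.26, 9.23 and 9.28 in KO dark, against 9.05, 9.10 and 9.08 in WT dark, without overlap. Of the 6 lens genes 5 were higher in KO dark (median 0.59, 0 called), with means of 8.62, 8.60 and 7.81, against 7.93, 7.75 and 7.06 in WT dark. The part of these shifts in the members' differences was not tested.

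Uqcrh, the acidic hinge protein at which cytochrome c docks on complex III, had 10.25, 10.27 and 10.22 in KO dark, against 10.57, 10.50 and 10.44 in WT dark. The groups did not overlap, and the difference was -0.26 (SE 0.06, ratio 0.84, limma adjusted p = 0.133, and 0.0463 with the exchanged arrays). Uqcrc1, a core subunit of the same complex, had 10.20, 10.16 and 10.18 in KO dark, against 10.36, 10.26 and 10.31 in WT dark. Every KO value lay below every WT value here too, but the difference of -0.13 was small (SE 0.05, limma adjusted p = 0.466). The catalytic partners Cyc1, which carries the heme of cytochrome c1, and Uqcrfs1, the Rieske iron-sulfur protein, differed by -0.04 and 0.01.

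Cycs had 8.34, 8.46 and 8.55 in KO dark, against 8.76, 8.53 and 8.63 in WT dark. KO dark 3 and WT dark 2 overlapped, and the difference of -0.19 did not pass the test (SE 0.07, ratio 0.88, limma adjusted p = 0.544, and 0.319 with the exchanged arrays). Its value is the mean of 3 probe sets of quite different brightness. The brightest of them, at 11.14, 11.08 and 11.11 in KO dark, against 11.29, 11.18 and 11.28 in WT dark, was lower in every KO array. The next in brightness overlapped between the groups, at 8.12, 8.33 and 8.12 in KO dark, against 8.7, 8.31 and 8.46 in WT dark. So did the dimmest, at 5.76, 5.97 and 6.42, against 6.28, 6.09 and 6.15. Which of the 3, the brightest included, read near-identical copies of this gene was not tested.

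Cox5b, a zinc-binding subunit of complex IV, had 10.98, 10.97 and 11.03 in KO dark, against 11.24, 11.25 and 11.21 in WT dark. The spread within each group was narrow and the difference was -0.24 (SE 0.05, ratio 0.85, limma adjusted p = 0.119, and 0.016 with the exchanged arrays). Cox4i1, the ubiquitous form of subunit 4, had 8.83, 8.84 and 8.90 in KO dark, against 9.13, 9.02 and 9.13 in WT dark. It differed by -0.23 (SE 0.07, ratio 0.85) without overlap and was not called with either set of arrays (limma adjusted p = 0.310, and 0.118 with the exchanged arrays). Cox6a1, the ubiquitous form of subunit 6a, went the other way and was singled out after its values were seen. Its levels of 9.75, 9.70 and 9.83 in KO dark lay above 9.60, 9.38 and 9.43 in WT dark, a difference of 0.29 that did not pass the test (SE 0.15, limma adjusted p = 0.794, and 0.189 with the exchanged arrays).

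Among genes of ATP synthase, Atp5g1, 1 of the 3 genes for the proton-carrying c subunit of the ring, had 9.34, 9.39 and 9.38 in KO dark, against 9.61, 9.55 and 9.57 in WT dark. This difference of -0.21 had an SE of 0.04 and a ratio of 0.87 (limma adjusted p = 0.120, and 0.0362 with the exchanged arrays), and both of its probe sets were lower in all KO arrays. Atp5k, the small subunit e that holds dimers of the enzyme together, had 8.15, 8.12 and 8.13 in KO dark, against 8.51, 8.41 and 8.37 in WT dark. It had the most negative difference of the ATP synthase genes, -0.29 (SE 0.07, ratio 0.82, limma adjusted p = 0.134, and 0.0118 with the exchanged arrays). Atp5b and Atp5a1 of the catalytic head differed less, by -0.04 and -0.11, and so did Atp5c1 of the central stalk, by -0.12. The calls with the exchanged arrays rested on single arrays in part: leaving out each of the 12 arrays in turn left 0 to 4 members called, and Atp5k stayed called in 9 of 12, Cox5b in 8, Uqcrh in 4 and Atp5g1 in 3. No member was called without KO dark 2 or without WT dark 1.

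**Figure D3:**
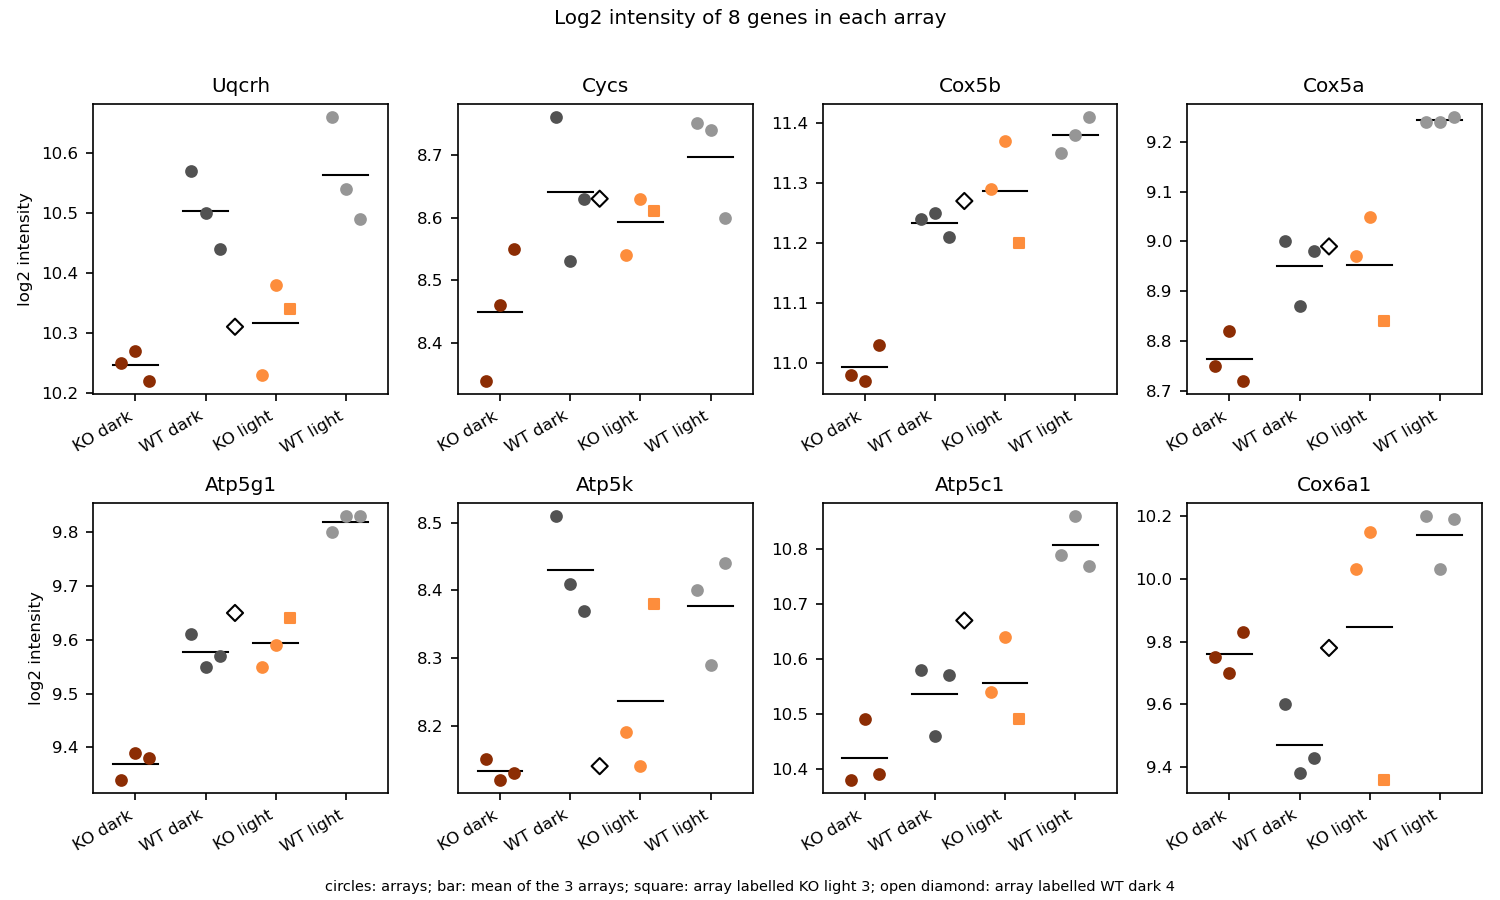
Log2 intensity (vertical axis) of Uqcrh, Cycs, Cox5b, Cox5a, Atp5g1, Atp5k, Atp5c1 and Cox6a1 in each array, by group, with a bar at the mean of 3 arrays. Uqcrh and Atp5k of KO light 1 and 2 lie below all WT dark arrays of replicates 1 to 3, whereas Cox5b and Atp5g1 of KO light lie near WT dark, and Cox6a1 of KO light 3 is at 9.36, below all other arrays.

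After light, 40 of the 44 genes had a lower mean in KO than in WT mice, with a median difference of -0.09, where 56.5% of all genes were lower and their median was -0.01. All 9 genes of complex III were lower (median -0.08), 15 of 17 of complex IV (-0.09) and 15 of 17 of ATP synthase (-0.10). No member was called, where 0.176% of all genes were. At an unadjusted p under 0.05 with the ratio threshold, 4 members were lower and 1 higher, where 2.69% of all genes were lower. With the exchanged arrays 39 genes were lower with a median of -0.07, where 58.9% of all genes were lower, and 4 members were called lower and 0 higher, where 3.66% of all genes were called lower. The summed intensity of the rod markers was 26812 to 29072 in KO light, with the highest in KO light 3, against 29045 to 30864 in WT light, and 26037 in the array labelled WT dark 4. Genes of reactive glia averaged 10.45, 10.18 and 8.49 in KO light, against 8.37, 8.85 and 9.32 in WT light, and 10.64 in the array labelled WT dark 4. Cone markers were lower in KO light for 6 of 6 (median -0.18, 0 called), and with the exchanged arrays 4 of them were called (median -0.42). Rod markers had a median of -0.21 as labelled (0 called), and with the exchanged arrays 3 of 5 were called lower (median -0.33). Reactive glia genes had a median of 0.92 as labelled (0 called), and with the exchanged arrays 6 of 6 were called higher (median 1.6). In that set 910 of all 19937 genes were called higher. The summed intensity of 6 genes of the retinal pigment epithelium (RPE), the layer behind the retina, was 1884 to 3935 in KO light, against 905 to 2322 in WT light. The part that these shifts between cell types have in the differences of the 44 genes was not tested.

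The 4 members called lower after light with the exchanged arrays were Uqcrh, Cox5a, Atp5g1 and Atp5k. Uqcrh had 10.23, 10.38 and 10.34 in KO light, against 10.66, 10.54 and 10.49 in WT light, and 10.31 in the array labelled WT dark 4. No KO value reached the WT values, and the difference was -0.25 (SE 0.06, limma adjusted p = 0.125), or -0.26 (SE 0.06, limma adjusted p = 0.00946) with the exchanged arrays. Cox5a, a subunit on the matrix side of complex IV, had 8.97, 9.05 and 8.84 in KO light, against 9.24, 9.24 and 9.25 in WT light, and 8.99 in the array labelled WT dark 4. WT light was tight and well above KO light, a difference of -0.29 (SE 0.06, ratio 0.82, limma adjusted p = 0.0723), or -0.24 (SE 0.05, limma adjusted p = 0.00486) with the exchanged arrays. Cox5b, by comparison, had 11.29, 11.37 and 11.20 in KO light, against 11.35, 11.38 and 11.41 in WT light. Its groups overlapped, and the difference of -0.09 did not pass the test (SE 0.05, limma adjusted p = 0.476, and 0.340 with the exchanged arrays).

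Atp5g1 had 9.55, 9.59 and 9.64 in KO light, against 9.80, 9.83 and 9.83 in WT light, and 9.65 in the array labelled WT dark 4. The groups were apart by -0.23 (SE 0.04, ratio 0.85, limma adjusted p = 0.0694), or by -0.22 (SE 0.04, limma adjusted p = 0.0042) with the exchanged arrays. Atp5k had 8.19, 8.14 and 8.38 in KO light, against 8.40, 8.29 and 8.44 in WT light, and 8.14 in the array labelled WT dark 4. Only KO light 3 reached into the WT range, so that the difference was -0.14 (SE 0.07, limma adjusted p = 0.404) as labelled and -0.22 (SE 0.05, limma adjusted p = 0.0128) with the exchanged arrays. Atp5c1, the gamma subunit of the rotating stalk, had 10.54, 10.64 and 10.49 in KO light, against 10.79, 10.86 and 10.77 in WT light, and 10.67 in the array labelled WT dark 4. It differed by -0.25 (SE 0.06, ratio 0.84, limma adjusted p = 0.120), and its ratio with the exchanged arrays, 0.88, missed the threshold (limma adjusted p = 0.0355). Cox5a and Uqcrh stayed called with each of the 12 arrays left out in turn, Atp5g1 in 11 of 12 and Atp5k in 10 of 12.

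Cox8b, the form of subunit 8 known from heart and skeletal muscle, was the member furthest above WT after light. It had 6.84, 7.51 and 7.37 in KO light, against 6.75, 6.48 and 6.79 in WT light, and 7.33 in the array labelled WT dark 4. The difference of 0.57 came with a wide error and was not called (SE 0.19, ratio 1.49, limma adjusted p = 0.239, and 0.0643 with the exchanged arrays). The summed intensity of the 6 striated muscle markers was 627 to 767 in KO light, against 652 to 680 in WT light. Uqcrb, a matrix-side subunit of complex III, had 10.13, 10.32 and 10.06 in KO light, against 10.44, 10.32 and 10.34 in WT light, and its difference was -0.20 (SE 0.08, limma adjusted p = 0.317).

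**Figure D4:**
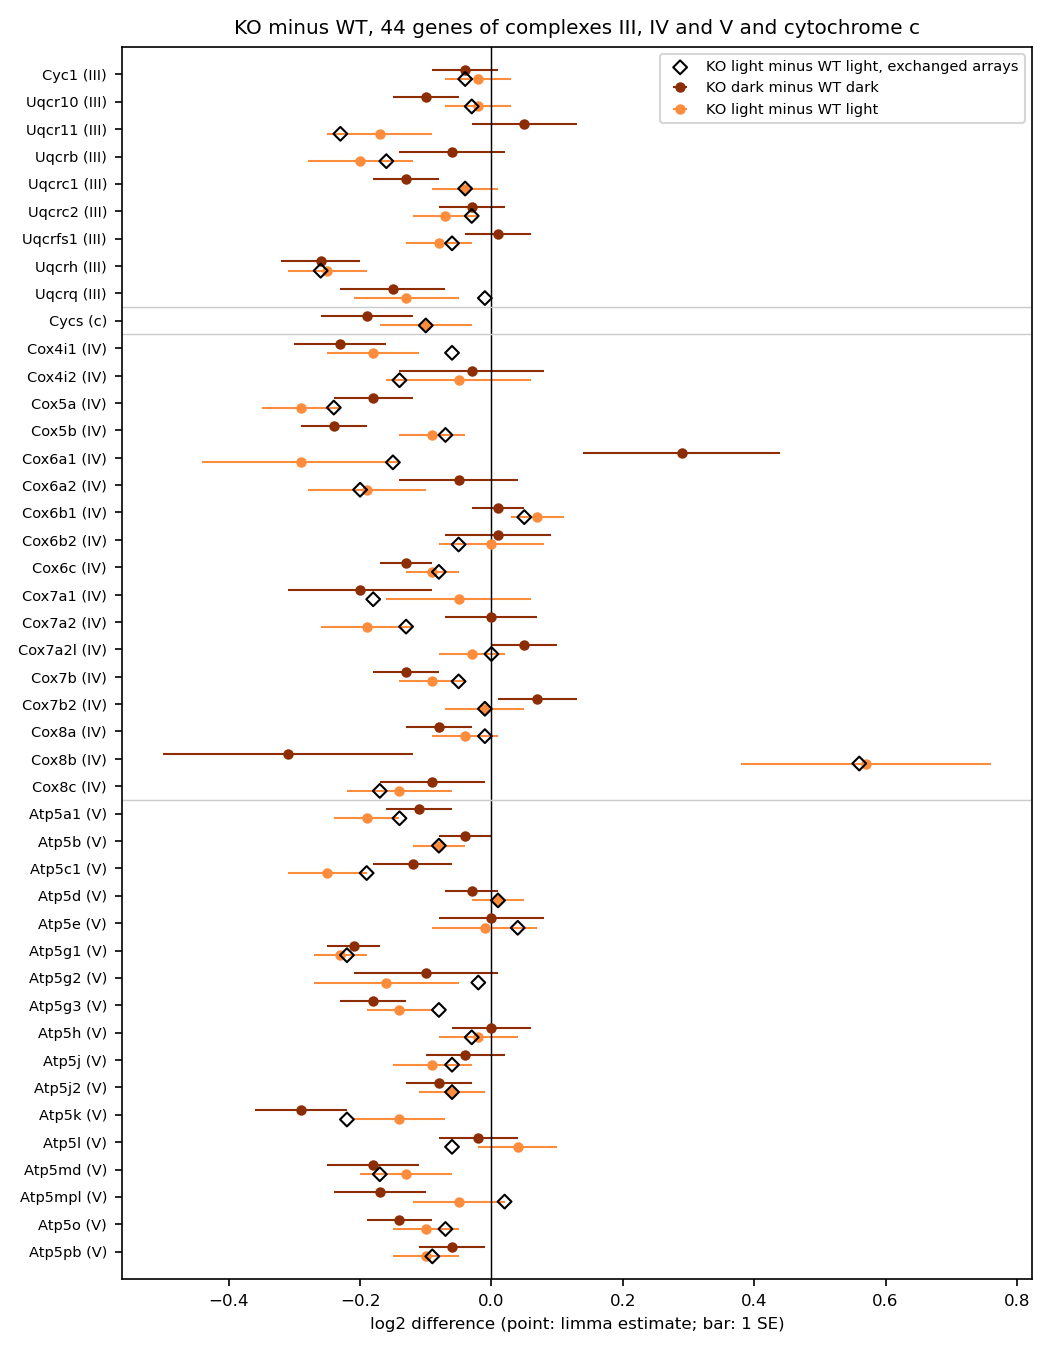
Log2 difference KO minus WT (horizontal axis, point with 1 SE) for each of the 44 genes, in the dark and after light, with open diamonds for KO light against WT light with the exchanged arrays. Most points lie left of 0, with Uqcrh at -0.26 in the dark and -0.25 after light, and Cox6a1 and Cox8b lie on opposite sides of 0 in the 2 conditions.

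The comparisons of genotype in the dark and after light share no array. Of the 44 genes 31 were lower in KO mice in both and 1 was higher in both, where 30.4% of all genes were lower in both. Across the 44 genes the differences had a Pearson r of -0.11 and a Spearman rho of 0.32, given as a description, since genes of an array share its RNA. Over the 5 KO arrays and 6 WT arrays left when KO light 3 and WT dark 4 are set aside, 2 members, Uqcrh and Atp5k, were below WT in every KO array and 0 were above, where 1% of all genes were below without overlap. Uqcrh ranged between 10.22 and 10.38 in KO and between 10.44 and 10.66 in WT arrays. Atp5k ranged between 8.12 and 8.19 in KO and between 8.29 and 8.51 in WT arrays. The array labelled WT dark 4 fell in the KO range for both genes, with 10.31 and 8.14, and KO light 3 fell in the KO range for Uqcrh, with 10.34, and in the WT range for Atp5k, with 8.38.

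In KO mice, 39 of the 44 genes had a higher mean after light than in the dark, with a median difference of 0.10, where 48.4% of all genes were higher and their median was 0.00. Among genes above the median level, where 37 of the members lie, 56% were higher (median 0.01). The count was 9 of 9 for complex III (median 0.11), 13 of 17 for complex IV (0.08) and 16 of 17 for ATP synthase (0.10). No member was called, where 0.1% of all genes were. At an unadjusted p under 0.05 with the ratio threshold, 6 members were higher, where 2.95% of all genes were. After quantile normalization 2 members were higher by this rule, and the share of all genes under that normalization is not given here. With the exchanged arrays 37 genes were higher with a median of 0.11, and 5 members were called higher and 0 lower, where 7.01% of all genes were called higher, so that the share of members called, 5 of 44, was near that of all genes. Between KO light and KO dark the cell type markers moved too: the summed intensity of reactive glia genes was 2617 to 10480 in KO light, lowest in KO light 3, against 2036 to 2170 in KO dark, and that of rod markers 26812 to 29072, against 29298 to 30320. Cone markers were lower in KO light for 6 of 6 (median -0.26, 0 called), and with the exchanged arrays 5 of them were called (median -0.49). Rod markers had a median of -0.19 as labelled (0 called), and with the exchanged arrays 3 of 5 were called lower (median -0.31). Reactive glia genes had a median of 1.5 as labelled (0 called), and with the exchanged arrays 6 of 6 were called higher (median 2.3). In that set 1256 of all 19937 genes were called lower. The part of the cell type markers in the result was not tested.

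Cox5b had 11.29, 11.37 and 11.20 in KO light, against 10.98, 10.97 and 11.03 in KO dark, and 11.27 in the array labelled WT dark 4. All light values lay above the dark values, a difference of 0.29 (SE 0.05, ratio 1.23, limma adjusted p = 0.0534), or 0.32 (SE 0.04, limma adjusted p = 0.000228) with the exchanged arrays. Cox4i1 had 9.18, 9.25 and 9.01 in KO light, against 8.83, 8.84 and 8.90 in KO dark, and 9.36 in the array labelled WT dark 4. The lowest of its light values belonged to KO light 3, and the difference was 0.29 (SE 0.07, limma adjusted p = 0.138), or 0.41 (SE 0.06, limma adjusted p = 0.000555) with the exchanged arrays. Uqcrq, a small subunit of complex III, had 9.05, 9.07 and 8.73 in KO light, against 8.63, 8.72 and 8.69 in KO dark, and 9.10 in the array labelled WT dark 4. KO light 3 was close to the dark arrays, so that its difference was 0.27 (SE 0.08, limma adjusted p = 0.194) as labelled and 0.39 (SE 0.05, limma adjusted p = 0.000109) with the exchanged arrays.

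Atp5mpl, a small subunit of the membrane part of ATP synthase, had 9.56, 9.53 and 9.33 in KO light, against 9.07, 9.24 and 9.17 in KO dark, and 9.55 in the array labelled WT dark 4. It differed by 0.31 (SE 0.07, limma adjusted p = 0.128), or by 0.38 (SE 0.06, limma adjusted p = 0.000472) with the exchanged arrays. Atp5g2, another gene for the c subunit, had 9.52, 9.42 and 9.04 in KO light, against 8.97, 9.14 and 9.07 in KO dark, and 9.46 in the array labelled WT dark 4. Here again KO light 3 lay among the dark arrays, and the difference was 0.27 (SE 0.11, limma adjusted p = 0.299) as labelled and 0.40 (SE 0.07, limma adjusted p = 0.00112) with the exchanged arrays. These 5 members stayed called in 12 of 12 fits with an array left out of the exchanged set. Atp5g1 did not reach the ratio threshold with either set, at 0.22 (SE 0.04, ratio 1.16, limma adjusted p = 0.084, and 0.00238 with the exchanged arrays). Cycs had 8.54, 8.63 and 8.61 in KO light, against 8.34, 8.46 and 8.55 in KO dark, and differed by 0.15 (SE 0.07, limma adjusted p = 0.390).

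In WT mice, 37 of the 44 genes had a higher mean after light than in the dark, with a median difference of 0.08, where 56.1% of all genes were higher and their median was 0.02. Among genes above the median level 62.7% were higher (median 0.04). The count was 9 of 9 for complex III (median 0.11), 13 of 17 for complex IV (0.06) and 14 of 17 for ATP synthase (0.11). No member was called, where 0.431% of all genes were, although Atp5g1 had an adjusted p under 0.05 with a ratio below the threshold. At an unadjusted p under 0.05 with the ratio threshold, 6 members were higher and 1, Cox8b, was lower, where 2.3% of all genes were higher. After quantile normalization 3 members were higher and 1 lower by this rule, again without a share of all genes. With the exchanged arrays, which again leave these 6 arrays as they are, 6 members were called higher and 0 lower, where 2.13% of all genes were called higher. The summed intensity of reactive glia genes was 2476 to 4914 in WT light, against 1772 to 2294 in WT dark, and that of rod markers 29045 to 30864, against 29941 to 31038. RPE genes were lower in WT light for 6 of 6 (median -0.72, 1 called), with a summed intensity of 905 to 2322, against 2160 to 3081 in WT dark, and cone markers for 5 of 6 (median -0.16, 0 called). Amacrine markers were higher in WT light for 5 of 6 (median 0.11, 1 called). Their mean was 9.19, 9.2 and 9.16, against 9.05, 9.1 and 9.08 in WT dark, without overlap. Of the 5 bipolar markers 2 were higher (median -0.06), and 1 was called higher. The part of these markers in the result was not tested. The called members were Uqcr11, Uqcrb, Cox5a, Cox6a1, Atp5c1 and Atp5g2.

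Cox6a1 had 10.20, 10.03 and 10.19 in WT light, against 9.60, 9.38 and 9.43 in WT dark. This was the largest difference of any member in any comparison of 2 groups, 0.67 (SE 0.15, ratio 1.59, limma adjusted p = 0.0725), with a smaller error of 0.09 and an adjusted p of 0.00111 with the exchanged arrays. Cox5a had 9.24, 9.24 and 9.25 in WT light, against 9.0, 8.87 and 8.98 in WT dark. It differed by 0.30 (SE 0.06, ratio 1.23, limma adjusted p = 0.0547, and 0.00356 with the exchanged arrays). Uqcr11, a small subunit of complex III, had 8.91, 9.23 and 9.18 in WT light, against 8.75, 8.82 and 8.70 in WT dark. The light values lay above the dark values, by 0.35 (SE 0.08, ratio 1.27, limma adjusted p = 0.0771, and 0.019 with the exchanged arrays).

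Uqcrb had 10.44, 10.32 and 10.34 in WT light, against 10.17, 10.09 and 9.96 in WT dark, and differed by 0.29 (SE 0.08, limma adjusted p = 0.0942, and 0.0235 with the exchanged arrays). Atp5c1 had 10.79, 10.86 and 10.77 in WT light, against 10.58, 10.46 and 10.57 in WT dark. Its difference of 0.27 was just past the ratio threshold (SE 0.06, ratio 1.21, limma adjusted p = 0.0606, and 0.0101 with the exchanged arrays). Atp5g2 had 9.48, 9.56 and 9.41 in WT light, against 9.16, 9.03 and 9.30 in WT dark, a difference of 0.32 (SE 0.11, limma adjusted p = 0.169, and 0.0152 with the exchanged arrays). Its probe sets moved unequally. The brightest had 11.18, 11.23 and 11.26 in WT light, against 11.12, 11.12 and 11.08 in WT dark. The next had 9.07, 9.19 and 9.21, against 8.66, 8.41 and 8.68. The dimmest overlapped, at 8.18, 8.25 and 7.76, against 7.7, 7.57 and 8.13. Atp5g1 had 9.80, 9.83 and 9.83 in WT light, against 9.61, 9.55 and 9.57 in WT dark. The groups were far apart for their spread, but the difference of 0.24 gave a ratio of 1.18, under the threshold of 1.2 (SE 0.04, limma adjusted p = 0.0432, and 0.00641 with the exchanged arrays). Cox6a1 stayed called in 12 of 12 fits with an array left out of the exchanged set, Cox5a in 11, Atp5c1 and Atp5g2 in 10, and Uqcr11 and Uqcrb in 8, and without WT dark 2 the number called was 2.

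**Figure D5:**
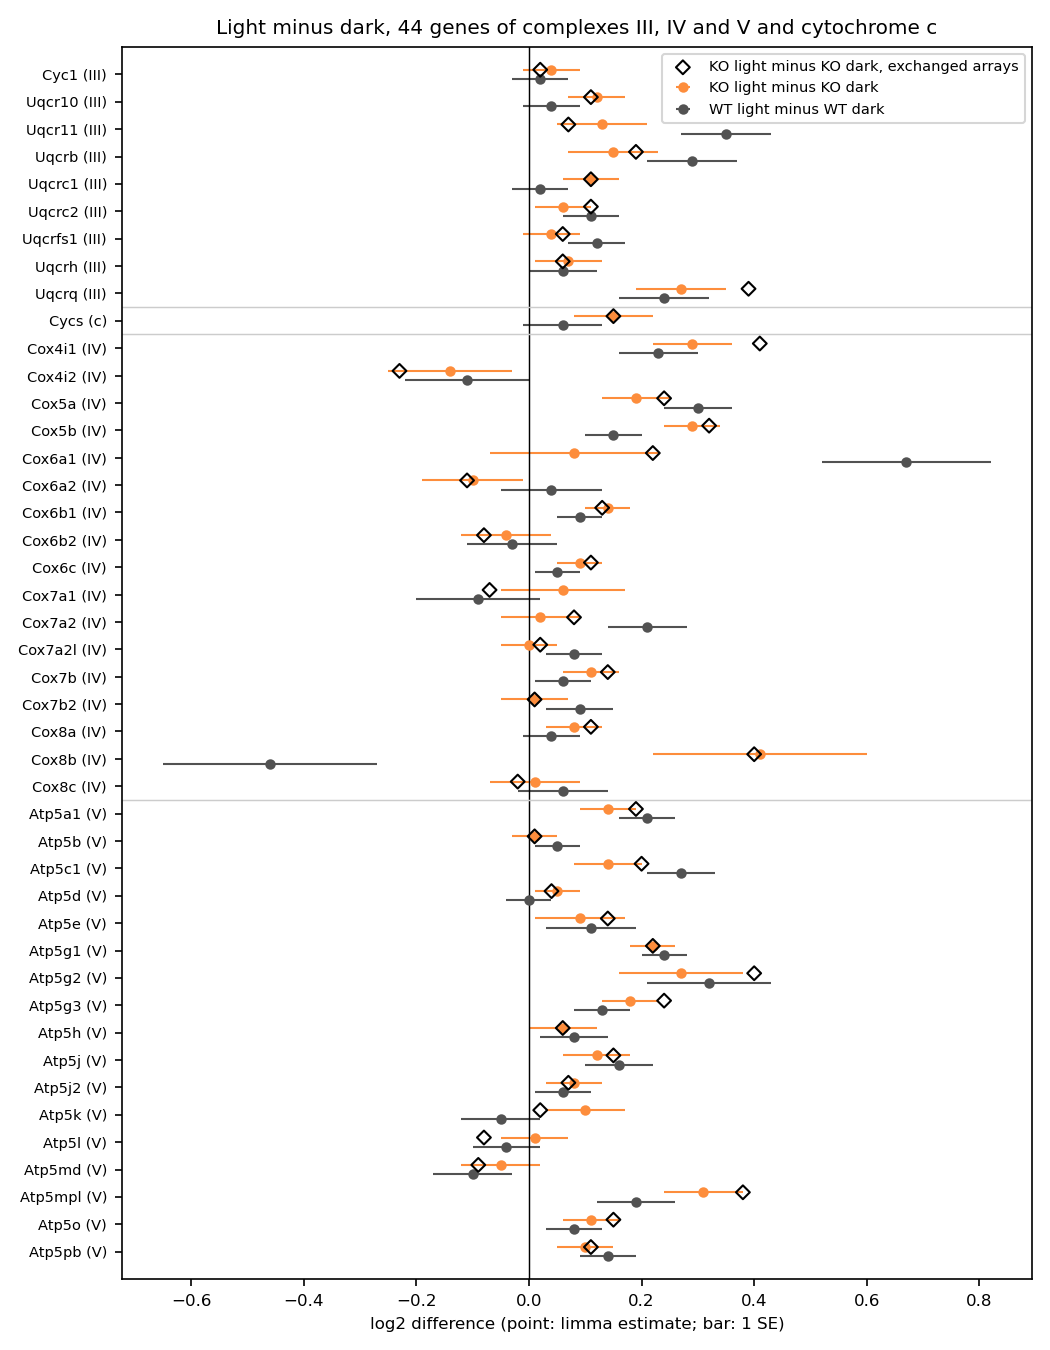
Log2 difference light minus dark (horizontal axis, point with 1 SE) for each of the 44 genes in KO and in WT mice, with open diamonds for KO light against KO dark with the exchanged arrays. Most points lie right of 0, the 9 genes of complex III all do, and Cox8b lies on opposite sides in KO (0.41) and WT mice (-0.46).

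The light responses of KO and WT mice share no array either. Of the 44 genes 35 were higher after light in both and 3 were lower in both, where 34.3% of all genes were higher in both, and over the 44 genes Pearson's r was 0.18 and Spearman's rho 0.54, or 0.39 and 0.66 with the exchanged arrays. The interaction, how far the response to light in KO mice exceeded the one in WT mice, was below 0 for 22 members and above it for 22, with a median of 0.00, and no member was called, where 0.0602% of all genes were. In the exchanged set it was below 0 for 21 and above it for 23, and again no member was called, where 2.78% of all genes were. Cox8b had the largest interaction, 0.88 (SE 0.26, limma adjusted p = 0.465, and 0.0988 with the exchanged arrays), since its level after light was higher in KO and lower in WT mice. For Cox6a1 it was -0.59 (SE 0.22, limma adjusted p = 0.614), or -0.44 (SE 0.12, limma adjusted p = 0.0788) with the exchanged arrays. KO light 3 had 9.36 for Cox6a1, far from the 10.03 and 10.15 of KO light 1 and 2. For Uqcr11 it was -0.22 (SE 0.12, limma adjusted p = 0.766), and for Atp5k 0.15 (SE 0.09, limma adjusted p = 0.792).

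The forms of complex IV subunits that are known from muscle, heart, lung or testis, Cox4i2, Cox6a2, Cox6b2, Cox7a1, Cox7b2, Cox8b and Cox8c, averaged 6.92 to 7.01 in KO dark, against 6.95 to 7.17 in WT dark, and 6.89 to 7.07 in KO light, against 6.94 to 7.0 in WT light. Their groups overlapped in both conditions. After light 4 of these 7 were higher than in the dark in KO mice (median 0.01), but with the exchanged arrays 2 were (median -0.07), and 3 were in WT mice (median -0.03). Of the other 37 members 35 were higher after light in KO mice, with either set of arrays, and 34 in WT mice, and 29 were lower in KO than in WT mice in the dark and 34 after light, or 33 with the exchanged arrays.

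In the dark most other genes of respiration had lower means in KO mice too. Of 34 genes of complex I, the NADH dehydrogenase, 30 were lower in KO than in WT mice in the dark (median -0.09), and so were all 4 of complex II, succinate dehydrogenase (-0.16), and 24 of 31 assembly factors of complexes III, IV and V (-0.05). After light 24 of the 31 assembly factors were lower in KO mice (median -0.08), but with the exchanged arrays 19 (61.3%, median -0.04) were, where 58.9% of all genes were lower, and of the 5 for ATP synthase 2 were. In these lists the only gene called as labelled in any comparison was Ndufb6 of complex I, at 0.46 in WT light against WT dark (SE 0.09, limma adjusted p = 0.0445). In the exchanged set Sdhd, a membrane anchor of complex II, was called lower in KO mice in the dark, at -0.46 (SE 0.07, limma adjusted p = 0.00411), and after light, at -0.42 (SE 0.07, limma adjusted p = 0.00164). Of all genes 0.552% and 3.66% were called lower there. Sdhd was also called higher in KO light than in KO dark, at 0.27 (SE 0.07, limma adjusted p = 0.0112), where 7.01% of all genes were. Cox18, which inserts a core subunit of complex IV into the membrane, was called higher in KO mice in the dark, at 0.37 (SE 0.06, limma adjusted p = 0.00718). Of the 34 genes of complex I, 2 were called lower in KO light against WT light, Ndufa10 and Ndufs3, where 3.66% of all genes were. In KO light against KO dark 6 were called higher, where 7.01% of all genes were. In WT light against WT dark 4 were called higher, where 2.13% of all genes were, all with the exchanged arrays. Assembly genes were called in both directions in the exchanged set. Cox10 (-0.28, SE 0.04) and Coa7 (-0.23, SE 0.07) were lower in KO light than in WT light. Coa3 (0.33, SE 0.07) and Tmem242 (0.42, SE 0.06) were higher in KO light than in KO dark. Surf1 (0.27, SE 0.05) and Cox18 (0.47, SE 0.06) were higher in WT light than in WT dark. These calls, in comparisons whose shares of all genes are given for complex I, had the direction of most members. Others went against it, as that of Cox18 in the dark did. Tmem242, an assembly factor of ATP synthase, was higher in KO light than in WT light by 0.32 (SE 0.06, limma adjusted p = 0.00427). Lrpprc, which stabilizes mitochondrial messenger RNAs, was lower in KO light than in KO dark, at -0.29 (SE 0.04, limma adjusted p = 0.000358). In the interaction, 3 of the 31 assembly factors were called with the exchanged arrays, where 2.78% of all genes were. They were Coa3 (0.54, SE 0.1, limma adjusted p = 0.016), Cox18 (-0.36, SE 0.08, limma adjusted p = 0.039) and Lrpprc (-0.28, SE 0.06, limma adjusted p = 0.0256).

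The probe sets limit some of these values. Of the members 13 were averages of more than 1 probe set and 31 rested on 1, from 65 probe sets in all. Differences in the dark had a median of -0.10 for the 13 and -0.08 for the 31. Genes of this pathway have many processed copies in the genome, and probe sets of unequal brightness under 1 symbol, as for Cycs, Atp5g2, Uqcrb and Atp5h, may read such copies, which was not tested.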

How the data were processed

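Both retinae of each mouse gave the RNA of 1 array. The authors deposited probe set intensities on a linear scale, already at a common level between arrays (median intensity 141.1 to 145.6). The methods name Partek and Bioconductor. For summarization, normalization, genome build and tool versions the sources used here name nothing. The labels name Trizol for extraction and the methods another kit and male mice.

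Intensities were taken to log2, and the 21640 of 34760 probe sets with exactly 1 gene symbol were averaged per gene (19937 genes). A 4-group linear model of 12 arrays was fitted with limma 3.58.1 (lmFit, eBayes) in R 4.3.3, without covariates; WT dark replicate 4 was left out. It stands for the ANOVA with Benjamini-Hochberg correction that the methods name, with their ratio thresholds of 1.2 and 0.87. For the interaction an adjusted p under 0.05 was enough. The number of arrays limits the precision. The p-values weigh a difference of means against a variance pooled over the 4 groups and moderated over all genes. Whether mice of a group were littermates is not given, so that these p-values hold for these mice. The fit was tested on simulated data.

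Values per array are given for members called in any comparison with either set of arrays, for Cox5b and Cycs, and for the members of each complex with the smallest p (2 for each comparison of genotypes, 1 for each other comparison). Cox6a1 in the dark and in the interaction was added after its values were seen. The members, the lists and this rule were chosen with earlier results of these data known. Replicate numbers do not pair the arrays, since deviations of arrays with the same number correlated between -0.19 and 0.22. Alternatives were the exchanged arrays, a replicate block, other normalization, filters and probe set rules, 2 groups alone and leaving out each array.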

Additional observations from a re-analysis of the deposited data

Results flagged for a closer look

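Of 16 named members and 4 complex means tested in the 4 arrays labelled WT dark, Cox5a had an array apart from the rest. WT dark 2 was at 8.87, against 8.98 to 9.0 in the other WT dark arrays, a gap that made up 0.855 of the range of the group. Chance sets an array apart in this way in about 1 in 20 groups.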

How the results depend on the processing

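The number of the 44 members called was 0 as labelled in all 5 comparisons, and the replicate block (a paired fit by replicate number) left it at 0 in each. For KO dark vs WT dark it was 4 with the exchanged arrays, 1 with the 2 groups alone, 1 among genes above the median level, and 0 to 3 with each array left out in turn (3 without KO light 3). For KO light vs WT light it was 4 with the exchanged arrays, 1 after quantile normalization, 2 among genes above the median level, and 0 to 3 with an array left out (3 without KO light 3). For KO light vs KO dark it was 5 with the exchanged arrays, 1 after quantile normalization, 1 among genes above the median level, 1 with the brightest probe set of each gene, and 0 to 6 with an array left out (6 without KO light 3). For WT light vs WT dark it was 6 with the exchanged arrays, 5 with the 2 groups alone, 4 among genes above the median level, 1 with the brightest probe set, 1 without the ratio threshold, and 0 to 6 with an array left out (3 without KO light 2, 6 without KO light 3). The median of the members in this comparison was 0.06 after quantile normalization, against 0.08. Calls over all genes moved with the arrays too. In the dark 0.0752% were called in either direction as labelled, and 0.552% were called lower with the exchanged arrays. For KO light vs WT light these shares were 0.176% and 3.66%. For KO light vs KO dark they were 0.1% and 7.01% (called higher), and for WT light vs WT dark 0.431% and 2.13% (called higher). The second share of each pair counts 1 direction only. In the other direction the exchanged arrays called 65, 910, 1256 and 456 of the 19937 genes in these comparisons, in the order given. For the other alternatives the share of all genes is not given here. With the exchanged arrays, leaving out an array, an alternative chosen after seeing the data, left 0 to 4 members called for KO dark vs WT dark, 3 to 5 for KO light vs WT light, 5 to 6 for KO light vs KO dark, 2 to 6 for WT light vs WT dark and 0 to 1 for the interaction. These alternatives were counted for the 36 pairs of a member and a comparison that the rule for values per array gave. Of their 714 values, 656 kept their direction and side of the threshold and 57 passed the threshold only under the alternative. The remaining 1 changed direction: Cycs in WT light vs WT dark was -0.05 with its brightest probe set (limma adjusted p = 0.584), against 0.06. Pairs named outside the rule were not counted, and of these Uqcrfs1 in the dark ranged from -0.01 to 0.03. Beyond the filters, the exclusion of arrays and the fit of fewer arrays, the cause of these changes was not tested. Signal over background was not measured, so dim members were kept, and the 3 arrays per group limit the precision.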
